A study of Homo sapiens with 8 samples.

Results

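A set of 9 enzyme genes of asparagine, glutamine, proline, transaminase and transsulfuration metabolism was followed through 8 mRNA-seq libraries of HCT116 cells, a human colorectal cancer line. The 9 genes were ASNS, GLUL, ALDH18A1, PYCR1, GPT2, GOT1, GOT2, CTH and CBS, taken by symbol from both count tables, which list 42125 and 23393 genes. All 9 were listed in each table, and 8 of the 9 had enough counts to be tested in each experiment, CBS being the exception. The cells of every library, siRNA libraries included, stably carried Tet-On shSAE2, a doxycycline-inducible hairpin against SAE2, whose gene is UBA2 and which is the catalytic subunit of the SUMO-activating enzyme. In the TFAP2C experiment, 2 libraries came from cells given control siRNA and 2 from cells given TFAP2C siRNA (TFAP2C KD) for 48 hours. In the SAE2 experiment, 2 control libraries came from cells labelled as given DMSO for 5 days, with columns named as lacking doxycycline, and 2 libraries labelled SAE2 kd came from cells given doxycycline at 1 ug/mL for 5 days. The comparisons ask which of these enzyme mRNAs change when the transcription factor TFAP2C is depleted and when SUMO activation is targeted. Doxycycline and the hairpin were present in the same libraries, and their parts cannot be told apart.

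ASNS makes asparagine from aspartate and glutamine, and GLUL makes glutamine from glutamate and ammonia. ALDH18A1 and PYCR1 open and close the route from glutamate to proline. GPT2 is the mitochondrial alanine transaminase, and GOT1 and GOT2 are the cytosolic and mitochondrial aspartate transaminases, which pass amino groups between glutamate and aspartate and take part in the malate-aspartate shuttle. CBS joins homocysteine to serine, and CTH splits the product to give cysteine. ATF4, a transcription factor whose translation rises when the translation factor eIF2alpha is phosphorylated, is known to act on the ASNS promoter and on other genes of amino acid supply in many cell types.

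The promoters of 4 members are shown because ASNS and GOT1 hold the letters of an ATF4-type element, GLUL holds those of an AP-2 element alone, and GOT2, the sister gene of GOT1, holds neither. Sequences are from RefSeq on GRCh38, read 5′ to 3′ on the minus strand, and end at the base before the annotated start. Capitals mark TGATGNAA, the C/EBP-ATF response element bound by ATF4 (in ASNS the longer TGATGAAAC, known as the nutrient-sensing response element), and GCCNNNGGC, the AP-2 element. In GOT1 the first capitals are the reverse complement, TTGCATCA.
ASNS (chr7:97872409-97872528): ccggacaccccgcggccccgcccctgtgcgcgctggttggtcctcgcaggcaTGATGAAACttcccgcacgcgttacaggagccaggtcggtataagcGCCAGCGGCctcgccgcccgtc
GOT1 (chr10:99430625-99430874): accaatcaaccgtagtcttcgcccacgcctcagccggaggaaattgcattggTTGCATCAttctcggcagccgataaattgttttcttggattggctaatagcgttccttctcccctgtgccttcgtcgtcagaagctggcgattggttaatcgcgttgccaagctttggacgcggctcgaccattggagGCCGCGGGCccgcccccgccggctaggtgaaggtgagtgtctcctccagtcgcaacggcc
GLUL (chr1:182391791-182391910): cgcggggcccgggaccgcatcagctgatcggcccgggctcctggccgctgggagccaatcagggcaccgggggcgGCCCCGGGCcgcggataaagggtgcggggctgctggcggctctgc
GOT2 (chr16:58734317-58734436): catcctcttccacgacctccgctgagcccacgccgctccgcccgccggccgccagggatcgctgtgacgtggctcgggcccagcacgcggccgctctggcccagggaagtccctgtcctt

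Windows from 250 bases before to 50 after a start, 300 bases in all, were searched on both strands. Of the 9 members, 7 had an entry in the RefSeq table used, with 11 windows among them, and PYCR1 and GPT2 had no entry, so their promoters were not searched. TGATGNAA stood in 3.62% of 35116 windows genome-wide. Among the members it was found in ASNS, with its first base at -68, and in GOT1, at -198. TGATGAAAC, which overlaps it and adds 1 base, stood in 0.225% of all windows and among the members in ASNS. The AP-2 letters stood in 23.2% of all windows, and were found in ASNS at -22, GOT1 at -60, GLUL at -45 and in another window at -116, CTH at 17 after the start, and CBS at -162 and -155. The cAMP response element TGACGTCA, in 1.85% of all windows, was found in no window of these 7 members. ALDH18A1 held the E-box CACGTG at -136, against 7.26% of all windows. The CCAAT box, in 34.6% of all windows, was found 5 times in the GOT1 window, and also in CTH, GLUL and CBS. These matches are descriptions of letters and were not tested as binding sites.

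Total counts ran from 20785035 to 24465109 in the TFAP2C experiment and from 18213739 to 20607813 in the SAE2 experiment, and levels are given as CPM, counts divided by the scaled library size. TFAP2C itself stood at 18.9 and 20.5 CPM with control siRNA and at 3.46 and 4.30 CPM after TFAP2C siRNA (log2 fold change -2.34, SE 0.13, edgeR adjusted p = 7.67e-06). UBA2 stood at 161.6 and 146.3 CPM in the control libraries and at 146.9 and 153.1 CPM in those labelled SAE2 kd, a log2 fold change of -0.036 (SE 0.056, 95% confidence interval -0.15 to 0.078, edgeR adjusted p = 0.766). The mRNA of the targeted gene thus did not separate the groups, so these libraries are named by their label. Counts of mRNA do not give the level of SAE2 protein. Of 10 colon epithelial markers, 7 were over 1 CPM in each group of the TFAP2C experiment and 6 in each group of the SAE2 experiment. VIL1, LGALS4 and CEACAM5 stayed at or near 0, and KRT20 was at 0.43 to 0.96 CPM in the SAE2 experiment. The summed level of the 10 markers was 2151 and 2170 CPM in the lower and higher control library and 2408 and 2500 CPM in the libraries labelled SAE2 kd. It was likewise higher after TFAP2C siRNA, at 3136 and 3407 CPM, against 2807 and 2915 CPM with control siRNA. Most of each sum came from EPCAM, KRT8, KRT18 and KRT19. After TFAP2C siRNA KRT8 (log2 fold change 0.25), KRT18 (0.12), KRT19 (0.23) and CDX2 (0.10) were higher, and EPCAM (-0.0016), CDH1 (-0.047) and KRT20 (-0.18) were not. None of them passed by edgeR. In the libraries labelled SAE2 kd EPCAM (0.15), KRT8 (0.18) and KRT18 (0.25) passed by edgeR. KRT19 (0.15), CDH1 (0.046), CDX2 (-0.0045) and KRT20 (-0.78) did not. The part of this summed level in the results was not tested. Leukocyte, endothelial and hepatocyte markers summed to less than 1 CPM in every library, and of the fibroblast pair COL1A1 was detected and COL1A2 was at 0.

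In the libraries labelled SAE2 kd, ASNS, GPT2, GOT1 and PYCR1 rose, and none of the members fell by edgeR or DESeq2. The 4 called were 4 of the 8 tested, where 9.98% of all 13381 genes tested passed an adjusted p of 0.05, 5.52% higher and 4.47% lower. At an unadjusted p under 0.05 there were 6 of 8, ALDH18A1 and GLUL being added, where 22.7% of all genes had one. The median log2 fold change over the 8 members was 0.23, against -0.00042 over all genes. The members were chosen with earlier results of these data known, so these comparisons with all genes are descriptions and not tests. After TFAP2C siRNA none of the 8 passed by edgeR, where 0.74% of 14991 genes did, 0.26% higher and 0.48% lower. GOT2 and CTH had an unadjusted p under 0.05, as did 12.6% of all genes. DESeq2 called none of the 8 either and gave 1 at an unadjusted p under 0.05, with the share of all genes not given here. Summed over the 9 enzymes, the share of all counts was 0.147% and 0.149% in the control libraries and 0.195% and 0.19% in those labelled SAE2 kd. The sum was 1462 and 1474 CPM in these controls and 1970 and 1911 CPM in the libraries labelled SAE2 kd. ASNS alone held 284 and 291 CPM of it in the controls and 561 and 562 CPM in those labelled SAE2 kd. In the TFAP2C experiment the share was 0.0985% to 0.106%. That table has other gene models and counts 37 mitochondrial genes that the SAE2 table lacks, so the shares are not comparable between experiments.

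**Figure D1:**
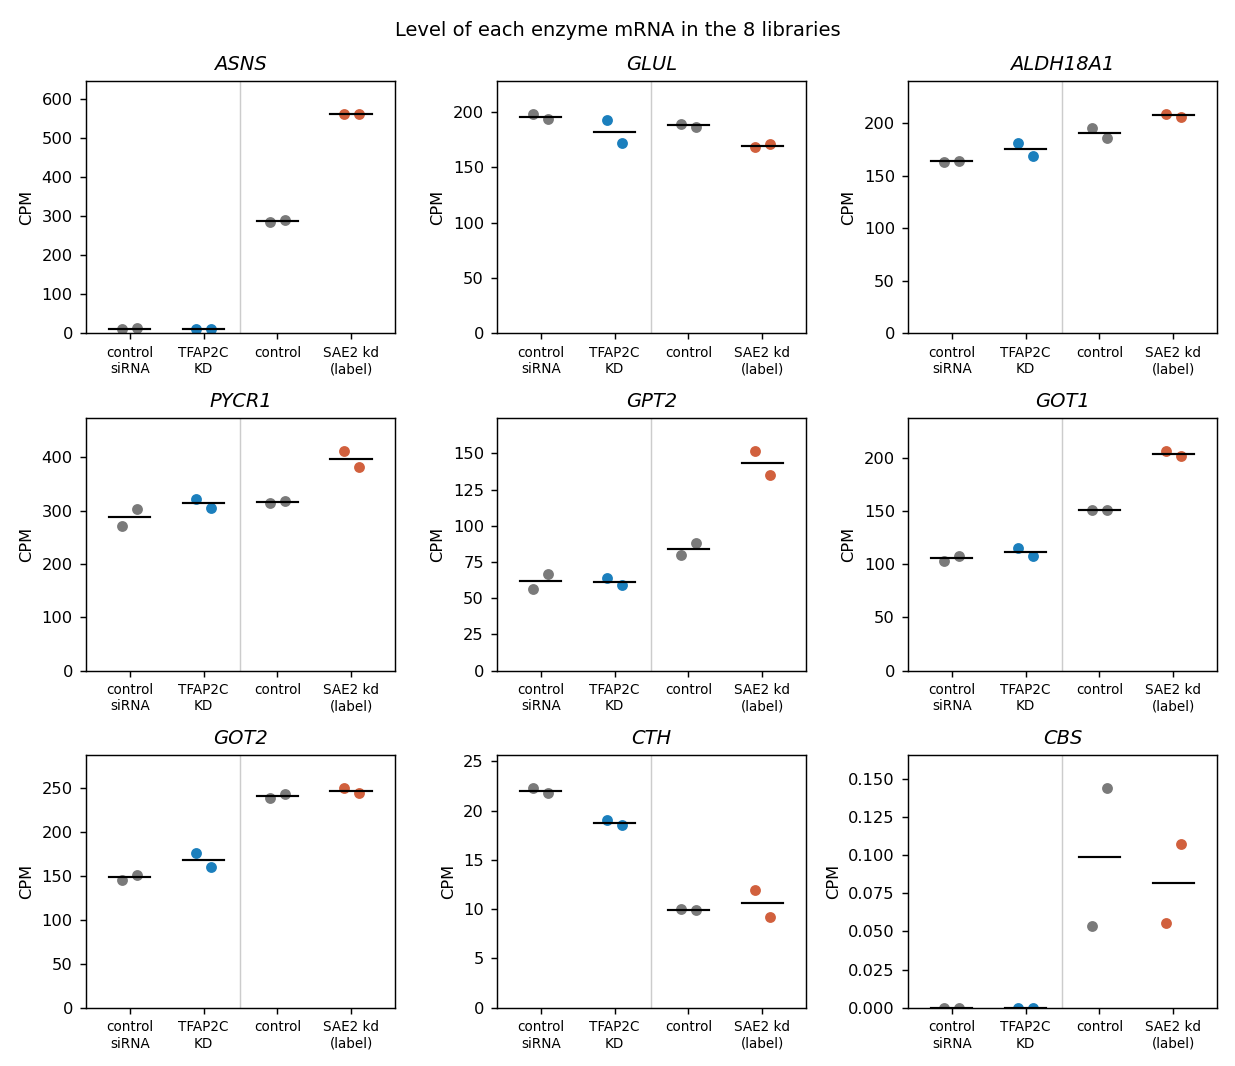
Level of each enzyme mRNA (CPM, each vertical axis from 0) in the 8 libraries. Points are single libraries, black bars are means of 2, and the grey line parts the experiments, whose tables were scaled separately. ASNS, GPT2, GOT1 and PYCR1 stand higher in the libraries labelled SAE2 kd than in their controls, and ASNS lies between 10.3 and 13.95 CPM in the TFAP2C experiment.

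ASNS, which lies at chr7:97481429-97501854 in the hg19 coordinates of the SAE2 table, showed the largest change of the 9. It stood at 284 and 291 CPM in the control libraries and at 561 and 562 CPM in those labelled SAE2 kd. The groups did not overlap, and the libraries of a group lay within 0.035 of each other on the log2 scale. The log2 fold change was 0.96 (SE 0.045, 95% confidence interval 0.87 to 1.06, edgeR adjusted p = 1.24e-16), a 1.95-fold rise. It was rank 33 among all genes ordered by rise. Leaving out any 1 library gave values from 0.95 to 0.98.

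In the TFAP2C experiment ASNS stood at 11.0 and 13.95 CPM with control siRNA and at 10.3 and 11.4 CPM after TFAP2C siRNA. The groups overlapped, and the log2 fold change was -0.20 (SE 0.13, 95% confidence interval -0.49 to 0.085, edgeR adjusted p = 0.554). It was -0.034 without the second control siRNA library and -0.37 without the first, with no call in either. These levels rest on 246 to 291 counts a library, against 5318 to 10455 in the SAE2 table. The control level was 23.1-fold lower in the TFAP2C table than in the SAE2 table, and 40 of 12160 genes tested in both (0.329%) had a ratio as low or lower. The other members tested lay between 1.63-fold lower and 2.21-fold higher. The 2 tables were made on different gene models: the TFAP2C table has GRCh38 positions and Ensembl gene types, the SAE2 table hg19 positions.

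The TFAP2C table also lists AC079781.5 (chr7:97851688-97972985, GRCh38, minus strand), a gene that spans ASNS on its own strand and was picked out after the values were seen. It held 62 to 75 counts a library. In GENCODE on GRCh37, a gene of the same span of 121298 bases on the same strand has exons covering 2374 of the 2385 bases (99.5%) of the main ASNS transcript (MANE Select) and touching 13 of its 13 exons. Over the exons of all annotated ASNS transcripts, 2415 of 4896 bases (49.3%) were covered. A read lying in exons of 2 genes is left out by the default setting of HTSeq, the counter named in the submitters' processing notes, and the setting used is not given in the sources used here. Adding the counts of AC079781.5 to ASNS left the log2 fold change at -0.17 (SE 0.12, edgeR adjusted p = 0.58). Reads left out for lying in both genes would be in neither count, so this sum cannot restore them. The part of this overlap in the low ASNS counts was not tested, and the ASNS value after TFAP2C siRNA describes only the reads that were assigned to it.

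**Figure D2:**
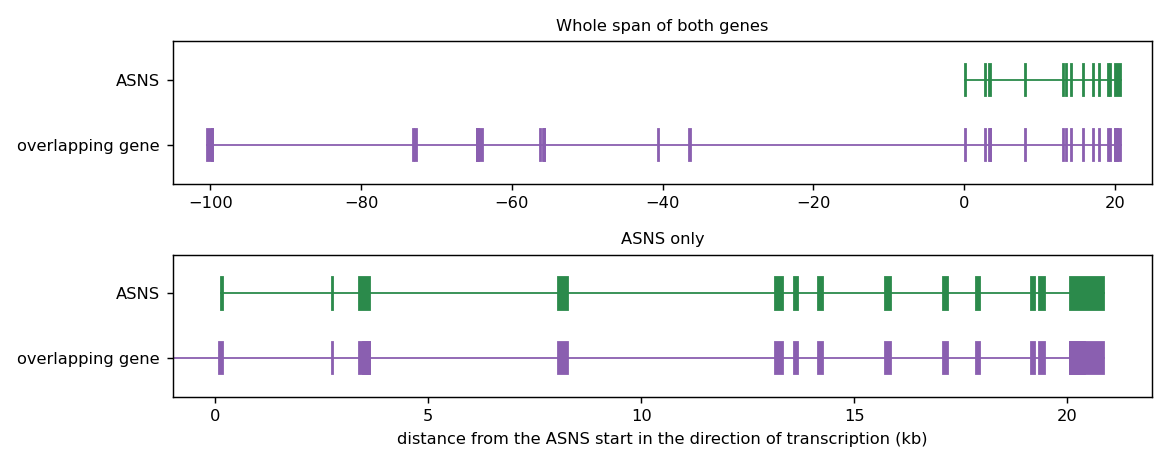
Exons of the main ASNS transcript and of the overlapping gene, as boxes, against distance from the ASNS start in the direction of transcription (kb), for the whole span (top) and for ASNS alone (bottom). The overlapping gene covers 99.5% of the bases of these exons, against 49.3% over the exons of all ASNS transcripts, and has further exons upstream.

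GLUL (chr1:182350839-182361341, hg19), the glutamine-forming partner of ASNS, passed in neither experiment. It stood at 189 and 187 CPM in the control libraries and at 168 and 170.5 CPM in those labelled SAE2 kd, both lower than both controls. The log2 fold change of -0.15 (SE 0.051, 95% confidence interval -0.25 to -0.046) did not pass, with an edgeR adjusted p of 0.0571. With scaling by library size alone it was -0.18 and passed (edgeR adjusted p = 0.0177). After TFAP2C siRNA, GLUL stood at 193 and 172 CPM, against 198 and 193 CPM with control siRNA, a log2 fold change of -0.10 (SE 0.074, edgeR adjusted p = 0.594).

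Of the proline pair, PYCR1, the reductase that completes proline, rose in the libraries labelled SAE2 kd. PYCR1 (chr17:79890267-79895172, hg19) stood at 315 and 317 CPM in the controls and at 412 and 383 CPM in those libraries, with no overlap. Its log2 fold change was 0.33 (SE 0.047, 95% confidence interval 0.23 to 0.43, edgeR adjusted p = 5.24e-06), and it was rank 611 by rise. ALDH18A1 (chr10:97365686-97416567, hg19), which makes the precursor from glutamate, stood at 195 and 186 CPM in the controls and at 209 and 206 CPM in the libraries labelled SAE2 kd. These groups did not overlap either, but the log2 fold change of 0.12 (SE 0.05, 95% confidence interval 0.020 to 0.23) did not pass (edgeR adjusted p = 0.131). Groups without overlap were common: 51.3% of all genes tested in the SAE2 experiment and 44.7% in the TFAP2C experiment had none, against 7 of 8 and 6 of 8 members. By direction, 6 members stood higher and 1 lower in the SAE2 experiment (25.5% and 25.8% of all genes), and 4 higher and 2 lower in the TFAP2C experiment (22.4% of all genes each way).

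After TFAP2C siRNA, PYCR1 stood at 322 and 306 CPM against 272 and 303 CPM with control siRNA (log2 fold change 0.13, SE 0.073, edgeR adjusted p = 0.492). ALDH18A1 stood at 182 and 169 CPM against 163 and 165 CPM (log2 fold change 0.099, SE 0.069, edgeR adjusted p = 0.581). For both genes the 2 TFAP2C siRNA libraries lay above the 2 control siRNA libraries, and neither change passed.

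Among the transaminases, GPT2 and GOT1 rose in the libraries labelled SAE2 kd and GOT2 did not pass. GPT2 (chr16:46918308-46965201, hg19) stood at 79.8 and 88.1 CPM in the controls and at 151.6 and 135.3 CPM in those libraries. Its log2 fold change was 0.77 (SE 0.062, 95% confidence interval 0.64 to 0.90, edgeR adjusted p = 4.66e-11), a 1.71-fold rise and rank 66. The spread within each GPT2 group, 0.14 and 0.16 on the log2 scale, was wider than for ASNS, and every pairing of a treated with a control library gave a difference of 0.62 to 0.93.

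GOT1 (chr10:101156627-101190530, hg19) stood at 150.6 and 151.0 CPM in the controls and at 206.3 and 201.4 CPM in the libraries labelled SAE2 kd. Its log2 fold change was 0.43 (SE 0.051, 95% confidence interval 0.33 to 0.54, edgeR adjusted p = 1.29e-07), rank 343. GOT2 (chr16:58741035-58768246, hg19), its mitochondrial counterpart, stood at 238 and 243 CPM in the controls and at 250 and 244 CPM in those libraries, with a log2 fold change of 0.037 (SE 0.048, 95% confidence interval -0.061 to 0.13, edgeR adjusted p = 0.722). The ratio of GOT2 to GOT1 counts, which needs no library scaling, was 1.58 and 1.61 in the controls and 1.21 and 1.21 in the libraries labelled SAE2 kd, a difference of -0.40 on the log2 scale. After TFAP2C siRNA it was 1.53 and 1.48, against 1.41 and 1.40 with control siRNA, a difference of 0.098. The exact two-sided permutation p was 0.333 in each experiment, the smallest that 2 against 2 libraries allow.

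After TFAP2C siRNA, GPT2 stood at 64.1 and 58.8 CPM against 56.4 and 66.8 CPM, with groups that overlapped and a log2 fold change of -0.0017 (SE 0.092, 95% confidence interval -0.20 to 0.20, edgeR adjusted p = 0.996). GOT1 stood at 115 and 108 CPM against 103 and 108 CPM (log2 fold change 0.081, SE 0.072, edgeR adjusted p = 0.678). GOT2 stood at 176 and 160 CPM against 146 and 151 CPM, higher in both, with a log2 fold change of 0.18 (SE 0.072, 95% confidence interval 0.023 to 0.34, unadjusted p = 0.0284 and adjusted p = 0.334 by edgeR). Without the second TFAP2C siRNA library the log2 fold change was 0.25 for GOT2 and 0.17 for PYCR1, with the sign kept. Both were called in that fit, but the share of all genes called in it is not given here. These calls are therefore not read as a result about the members. The 2 TFAP2C siRNA libraries differed more than other replicates did, with a chi-square over degrees of freedom of 8.98 across genes, against 2.55 to 2.75 in the other groups.

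**Figure D3:**
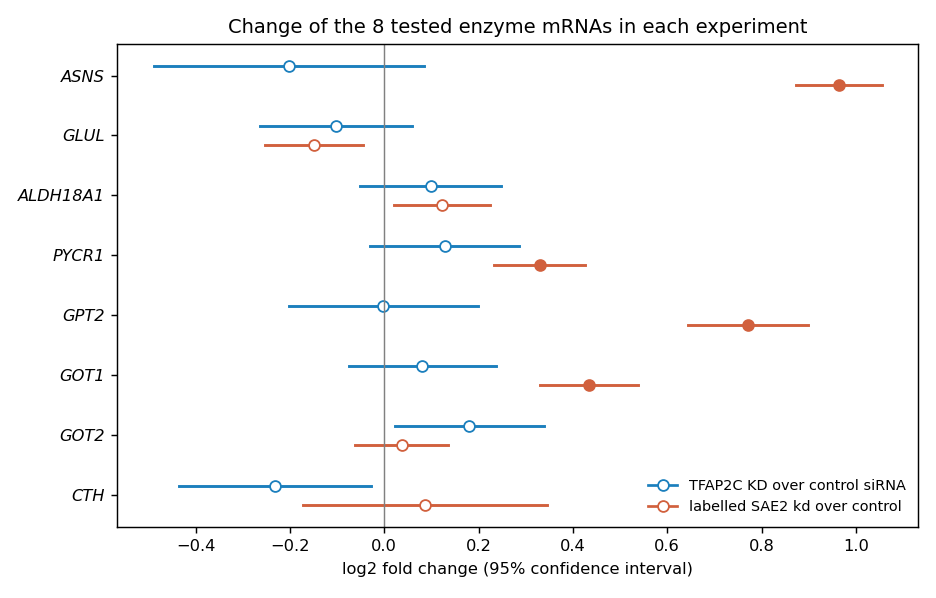
Log2 fold change of the 8 tested enzyme mRNAs with 95% confidence intervals (lines) from edgeR, for TFAP2C siRNA over control siRNA (blue) and the libraries labelled SAE2 kd over control (orange), 2 libraries a group. Filled points passed an adjusted p of 0.05: ASNS at 0.96, GPT2 at 0.77, GOT1 at 0.43 and PYCR1 at 0.33, all in the SAE2 experiment.

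Of the transsulfuration pair, CTH was low in every library and CBS was hardly detected. CTH (chr1:70876901-70905534, hg19) stood at 10.0 and 9.87 CPM in the SAE2 controls and at 12.0 and 9.18 CPM in the libraries labelled SAE2 kd. These libraries lay on either side of the controls, with a log2 fold change of 0.087 (SE 0.13, 95% confidence interval -0.17 to 0.35, edgeR adjusted p = 0.752), and its sign turned when the first of them was left out (-0.12). After TFAP2C siRNA, CTH stood at 19.1 and 18.5 CPM against 22.3 and 21.8 CPM with control siRNA, lower in both. The log2 fold change was -0.23 (SE 0.094, 95% confidence interval -0.43 to -0.027), with an unadjusted p of 0.0295 and an adjusted p of 0.335 by edgeR.

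CBS (chr21:44473301-44496472, hg19) held 1 and 3 counts in the SAE2 controls and 1 and 2 in the libraries labelled SAE2 kd, and the summed counts of 4 and 3 allow at most 0.261 and 0.237 CPM (exact 95% Poisson limit, counting error only). In the TFAP2C table CBS was at 0 in all 4 libraries, where a count of 0 allows 0.123 to 0.144 CPM a library (3 counts). That table also lists CBSL (chr21:6444869-6468040, GRCh38), a near-identical copy, also at 0 in all 4 libraries, and reads that fit both copies can be lost. U2AF1, a neighbour of CBS chosen after its values were seen, held 28 to 45 counts there and its listed copy U2AF1L5 12 to 24, against 3567 to 4220 for U2AF1 in the SAE2 table, which lists neither copy. The part of the copies in the zero for CBS in the TFAP2C table was not tested. In the SAE2 table, with those U2AF1 counts, CBS still held no more than 3 counts.

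Levels per length (RPKM) used the gene lengths given in each table, which differ with the gene models and need not be transcript lengths. The SAE2 and TFAP2C tables give 2.512 and 4.882 kb for ASNS, 2.437 and 3.742 kb for GOT2, and 2.516 and 2.416 kb for GOT1. RPKM values and orders are therefore not comparable between the 2 tables. The order in the SAE2 controls was ASNS (114 RPKM), PYCR1 (110 RPKM), GOT2 (98.9 RPKM), GOT1 (59.9 RPKM), ALDH18A1 (55.4 RPKM), GLUL (33.8 RPKM), GPT2 (17.7 RPKM), CTH (4.56 RPKM) and CBS (0.030 RPKM). No neighbours in that order overlapped between the 2 libraries. In the libraries labelled SAE2 kd the order was kept, with ASNS at 223 RPKM and PYCR1 at 139 RPKM, but GPT2 at 30.2 RPKM now overlapped GLUL at 30.4 RPKM. With control siRNA, PYCR1 led at 99.9 RPKM, followed by ALDH18A1 and GOT1 at 43.8 and 43.6 RPKM, which overlapped, and GOT2 at 39.6 RPKM. GLUL at 21.7 RPKM came next, then GPT2 and CTH, overlapping at 9.71 and 9.18 RPKM, and ASNS at 2.56 RPKM from the reads assigned to it. After TFAP2C siRNA, ALDH18A1, GOT1 and GOT2 overlapped.

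The genes nearest to 3 members in pattern were taken by Euclidean distance of log2 CPM over the 8 libraries, each centred on its own controls, among 11004 genes. Nearest to ASNS were JDP2 (distance 0.215), RBCK1 (0.262) and PIP5KL1 (0.298). Nearest to PYCR1 were RGMB (0.0557), SLC35F6 (0.0803) and FITM2 (0.0804), and nearest to CTH were NPIPA1 (0.117), PDZD7 (0.139) and C12orf57 (0.153). These distances describe likeness in 8 libraries and were not tested.

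The change itself differed between the experiments for ASNS, GPT2 and GOT1. Taken as the change after TFAP2C siRNA less the change in the libraries labelled SAE2 kd, it was -1.17 for ASNS (SE 0.13, edgeR adjusted p = 0.000213) and -0.78 for GPT2 (SE 0.12, edgeR adjusted p = 0.00344). For GOT1 it was -0.36 (SE 0.079, edgeR adjusted p = 0.0326), and this call was lost with the replicate number as a block (adjusted p = 0.156) and when any of 6 of the 8 libraries was left out, with adjusted p from 0.0806 to 0.235 for both control siRNA, both control and both SAE2 kd libraries. These are 3 of 8 members, where 2.25% of 13181 genes passed. PYCR1 had a difference of -0.20 (95% confidence interval -0.39 to -0.022, edgeR adjusted p = 0.28). The experiments also differ in gene models, agent and time, which cannot be told apart from the targeted gene, and the ASNS difference includes the low counts described above.

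Of 41 neighbouring enzymes in the same pathways, 34 were tested in the SAE2 experiment, and 7 rose and 2 fell (13 at an unadjusted p under 0.05), with a median log2 fold change of 0.041 against -0.00042 over all genes. Of all genes tested, 5.52% were called higher and 4.47% lower, and 22.7% had an unadjusted p under 0.05. The largest rise was in ASS1, which joins citrulline to aspartate, from 28.4 and 34.3 to 42.8 and 45.2 CPM (log2 fold change 0.49, SE 0.081, edgeR adjusted p = 5.84e-05). GSS, glutathione synthetase, rose by 0.32 on the log2 scale (SE 0.058, edgeR adjusted p = 0.000241). GLUD2 rose by 0.28 (SE 0.067, edgeR adjusted p = 0.00595), though it is a retrocopy of GLUD1 and its reads cannot be assigned with certainty.

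ASRGL1, an asparaginase, fell by 0.31 on the log2 scale (SE 0.083, edgeR adjusted p = 0.0125), from 29.2 and 32.5 to 25.1 and 24.8 CPM, while ASNS rose. OAT, which links ornithine to the proline precursor, fell by 0.18 (SE 0.052, edgeR adjusted p = 0.0221). Without the second control library some of these calls were lost, ASRGL1 and GLUD2 among them. The share of all genes called in that fit is not given here, so the loss cannot be read as particular to these enzymes. Leaving out any 1 library gave log2 fold changes of -0.38 to -0.23 for ASRGL1 and 0.22 to 0.33 for GLUD2. GLUD2 also lost its call without the first SAE2 kd library (edgeR adjusted p = 0.0619). OAT lost its call without the first control (edgeR adjusted p = 0.245) or without the first SAE2 kd library (0.125). In DESeq2 neither of the falls passed (ASRGL1 adjusted p = 0.112, OAT 0.0513).

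Grouped by role in the libraries labelled SAE2 kd, where 5.52% of all genes were called higher, 2 of 3 enzymes of glutamine and glutamate use, 2 of 6 of the methionine cycle and 1 of 9 of cysteine use rose. Of 4 of asparagine and aspartate use, ASS1 rose and ASRGL1 fell, and neither of the 2 further transaminases tested, of alanine and branched-chain amino acids, passed or had an unadjusted p under 0.05 by edgeR. Without the second control library the calls in glutamine and glutamate use and in the methionine cycle were lost. The share of all genes called in that fit is not given here. None of the 5 other malate-aspartate shuttle genes passed by edgeR, and none of these 5 had an unadjusted p under 0.05. After TFAP2C siRNA none of 35 neighbouring enzymes passed by edgeR, where 0.74% of all genes did. An unadjusted p under 0.05 was found for 7 of them, and for 12.6% of all genes. By DESeq2 none passed and 2 had an unadjusted p under 0.05, with the share of all genes not given here.

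In the ATF4 axis, a list of 18 genes made of eIF2alpha kinases, bZIP factors and known effectors, 10 of 16 tested rose in the libraries labelled SAE2 kd and none fell by edgeR or DESeq2, where 5.52% of all genes were called higher and 4.47% lower. The median log2 fold change over the 16 was 0.61, against -0.00042 over all genes. This list and that of the neighbouring enzymes were chosen with earlier results of these data known. Their counts and medians beside those of all genes are descriptions and not tests. ATF4 itself rose from 217 and 227 to 368 and 359 CPM (log2 fold change 0.71, SE 0.048, edgeR adjusted p = 6.82e-13). CHAC1, a glutathione-degrading enzyme, rose from 8.12 and 9.54 to 39.4 and 33.2 CPM (log2 fold change 2.03, SE 0.10, edgeR adjusted p = 1.32e-15). TRIB3, a pseudokinase, rose by 1.35 on the log2 scale (SE 0.059), DDIT3, a bZIP factor, by 1.34 (SE 0.091) and SESN2, an inhibitor of mTORC1 signalling, by 1.23 (SE 0.075). None of the 4 kinase mRNAs passed by edgeR, and none of the 4 had an unadjusted p under 0.05. After TFAP2C siRNA ATF4 stood at 238 and 240 CPM against 228 and 253 CPM (log2 fold change -0.0096, SE 0.071, edgeR adjusted p = 0.972). None of 17 genes passed by edgeR, where 0.74% of all genes did, and 1 had an unadjusted p under 0.05, as did 12.6% of all genes. By DESeq2 none passed and 0 had an unadjusted p under 0.05, with the share of all genes not given here. Fits without either TFAP2C siRNA library called some of those 17 and some of the 35 neighbouring enzymes. The share of all genes called in such fits is not given here, so these calls are not read as a response of either list.

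**Figure D4:**
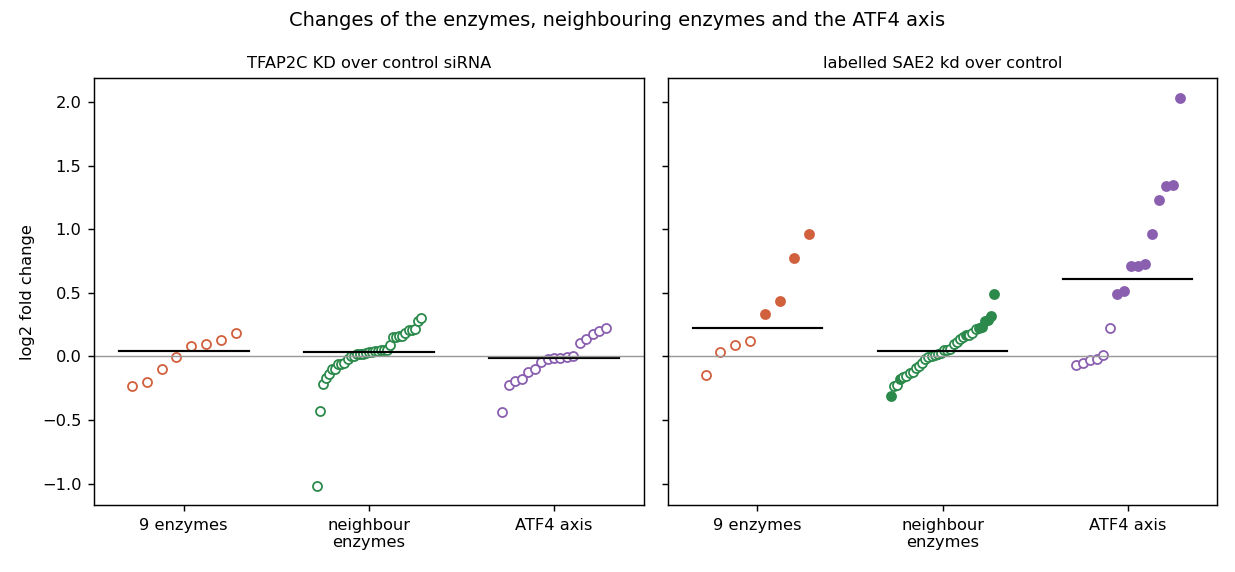
Log2 fold change of each tested gene of the 9 enzymes, the neighbouring enzymes and the ATF4 axis, ordered by value within a list, after TFAP2C siRNA (left) and in the libraries labelled SAE2 kd (right). Filled points passed an adjusted p of 0.05 and black bars are medians, which in the SAE2 experiment were 0.23, 0.041 and 0.61.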

How the data were processed

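RNA from 8 HCT116 samples was made into libraries with a KAPA mRNA kit and read single-end. The authors describe aligning reads with TopHat2 and counting them per RefSeq gene with HTSeq 0.9.1, both named in the submitters' processing notes with build hg19. The TFAP2C table, with GRCh38 positions and Ensembl gene types, departs from that description, and its gene models are not named in the sources used here. Strand and overlap settings were not given there either, so reads of a gene and of an antisense or overlapping partner cannot be told apart. The deposited tables hold raw counts per gene, with gene lengths. The TFAP2C table has GRCh38 positions and 37 mitochondrial genes (9.79% to 9.96% of counts), the SAE2 table hg19 positions and none.

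Each experiment was fitted alone in edgeR 4.0.16 (R 4.3.3) with filterByExpr, TMM scaling and the quasi-likelihood test. P-values were two-sided and adjusted by Benjamini-Hochberg over all genes tested, and a call is an adjusted p under 0.05. Biological coefficients of variation were 6.28% and 3.56%. The difference between the experiments was an interaction over 8 libraries on 13181 of 21259 shared symbols. Computed CPM use TMM library sizes. DESeq2 1.42.0, other scalings, filters, a replicate block and leaving out each library were alternatives. The fits were run on simulated counts with the same relative spread for every gene and group, which checks the code only. The real groups were less even, with a chi-square over degrees of freedom of 8.98 after TFAP2C siRNA and 2.63 with control siRNA. Intervals on counts and floors cover counting error only.

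The 9 members and all lists were chosen with earlier results of these data known. Named were all members, the targeted genes, ATF4, the copy CBSL, and in each list up to 4 genes with the largest called rise and 4 with the largest called fall, of which 1 gene is not reported here; for likeness, the nearest 3 genes of mean log2 CPM of at least 1, with a pseudocount of 0.5 CPM. Sources do not say whether the 2 samples of a group were separate cultures, so p-values measure the spread between these samples, which may be technical. Replicates differed by more than sampling noise. In a bulk library fewer cells of a kind and less RNA per cell cannot be told apart. Motifs were searched in RefSeq windows on GRCh38 and exon overlap was measured in GENCODE on GRCh37. No coordinates were converted.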

Additional observations from a re-analysis of the deposited data

Results flagged for a closer look

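The change differed between the experiments, by a test of the difference itself, for 3 members. Taken as the log2 change after TFAP2C siRNA less that in the libraries labelled SAE2 kd, it was -1.17 for ASNS (edgeR adjusted p = 0.000213), from -0.20 and 0.96, with overlapping groups in the first experiment and both libraries higher in the second. It was -0.78 for GPT2 (edgeR adjusted p = 0.00344), from -0.0017 and 0.77. It was -0.36 for GOT1 (edgeR adjusted p = 0.0326), from 0.081 and 0.43, and GOT1 passed in 2 of 8 fits that left out a library. Groups held 2 libraries, too few to look for a sample far from the others.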

How the results depend on the processing

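Over 574 alternatives for 45 results, the 4 members called in the libraries labelled SAE2 kd stayed at 4, also with each library left out (4 to 4), except that library size scaling gave 5, GLUL being added. Without any 1 library, members called after TFAP2C siRNA ranged from 0 to 2, neighbouring enzymes from 0 to 6 and ATF4 axis genes from 0 to 4. Neighbouring enzymes called in the libraries labelled SAE2 kd ranged from 3 to 8, and were 4 with all 8 libraries in the fit. With the replicate number as a block, members called stayed at 0 and 4, and members whose change differed between the experiments were 2, GOT1 being lost. The correlation of same-numbered deviations was -0.18 in the TFAP2C experiment and 0.016 in the SAE2 experiment. This showed no pairing of the samples by replicate number but does not exclude one, such as in crossed order. Crossed numbers in the TFAP2C experiment, an alternative chosen after seeing the data, called 0 members. They gave 3 members at an unadjusted p under 0.05 by edgeR, against 0 with the numbers as given. Signs turned for GPT2 after TFAP2C siRNA (0.0041 with no filter, 0.0011 with the replicate block, -0.12 to 0.11 without 1 library), ATF4 after TFAP2C siRNA (-0.083 to 0.058), CTH (-0.12 to 0.27) and UBA2 (-0.11 to 0.038) in the libraries labelled SAE2 kd, and the differences between experiments of GLUL (-0.030 to 0.11) and ALDH18A1 (-0.067 to 0.0042). None of these 6 values had been called. After TFAP2C siRNA, leaving out 1 library also gave -0.37 to -0.034 for ASNS, -0.19 to -0.018 for GLUL, 0.052 to 0.20 for PYCR1 and 0.034 to 0.13 for GOT1, with the sign kept. The causes were not tested, beyond the fewer samples that leaving out a library brings. A fit that leaves a group with 1 library assumes it varies like the others. CBSL could not be added to CBS in the SAE2 experiment, and CBS was too low to test.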
